A study of Mus musculus with 12 samples.

Results

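The 8 genes described here encode the gap junction proteins of astrocytes and the proteins that sit beside them at astrocyte contacts, and they were taken by symbol from a gene table of 45777 genes. They are Gja1 (connexin Cx43), Gjb6 (Cx30), Gjb2 (Cx26), Panx1 (pannexin 1), Hepacam (GlialCAM), Mlc1, Clcn2 (the chloride channel ClC-2) and Tjp1 (ZO-1). All 8 were in the table, had counts in all 12 libraries and passed the filter on low counts, which left 19163 genes.

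Connexins assemble into channels that join the cytoplasm of neighbouring cells, and astrocytes use them to pass ions, glucose and signalling molecules through a coupled network. Pannexin 1 forms channels to the outside of the cell and not between cells. GlialCAM is an adhesion protein that brings MLC1 and ClC-2 to the contacts between astrocytes and to their endfeet on blood vessels, where these proteins take part in the handling of ions and cell volume. ZO-1 is a scaffold protein that binds the tail of Cx43.

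Astrocytes came from the cerebral cortex of mice at postnatal day 14 and were purified with immunopanning and Miltenyi Biotec beads. Cre- animals carried the floxed glucocorticoid receptor gene (Nr3c1 flox/flox), and AGR cKO animals carried in addition Aldh1l1-CreERT2, a tamoxifen-dependent recombinase under the control of an astrocyte gene. Pups of the ESD groups were kept from the dam for 3 hours a day on days 1 to 14, and control pups were not. Animals of all 4 groups, the Cre- controls included, received 4-hydroxytamoxifen on days 5 to 7, so the receptor gene was intact in AGR cKO animals before then. Each of the 4 combinations of genotype and condition had 3 libraries, numbered 1 to 3 in the labels. Recombination depends on the cells that express the transgene, and the labels do not state whether a library pooled animals. The p-values below therefore measure the spread between these libraries, which may be technical.

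Total counts per library ran from 42603546 to 52130081. Nr3c1, the targeted gene, lay at 199 to 237 CPM (counts scaled to library size) in the 6 Cre- libraries and at 66.6 to 108 CPM in the 6 AGR cKO libraries, with no overlap. The 17 astrocyte markers summed to 39237 to 55640 CPM per library. The 13 microglia and macrophage markers summed to 172 to 1057 CPM and the 11 endothelial markers to 282 to 2081 CPM, the highest of both in Cre- control 1. The 9 mural cell markers (pericytes and smooth muscle) summed higher, to 1982 to 6154 CPM, with Rgs5 at a mean of 2374 CPM. Among 14 oligodendrocyte lineage markers, Mog was at 0 in 4 libraries and Enpp6 in 1 library. The summed neuronal markers (423 to 601 CPM) came mostly from Map2, at a mean of 494 CPM.

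Gjb6 and Gjb2 are neighbours on chromosome 14 and are both read from the minus strand (mm10; Gjb2 at 57098602 to 57104702, Gjb6 at 57123301 to 57133611), while Gja1 lies on the plus strand of chromosome 10 (56377300 to 56390419). The 250 bases before the annotated start of these 3 connexin genes are shown because Gjb6 and Gjb2 turned out lower in AGR cKO libraries and Gja1 did not pass the test. They are RefSeq sequence of GRCm38.p6, written 5′ to 3′ on the strand of the gene, at chr14:57133612-57133861 for Gjb6, chr14:57104703-57104952 for Gjb2 and chr10:56377050-56377299 for Gja1. Capitals mark GC boxes, the letters GGGCGG or their form on the other strand, which reads CCGCCC.
Gjb6: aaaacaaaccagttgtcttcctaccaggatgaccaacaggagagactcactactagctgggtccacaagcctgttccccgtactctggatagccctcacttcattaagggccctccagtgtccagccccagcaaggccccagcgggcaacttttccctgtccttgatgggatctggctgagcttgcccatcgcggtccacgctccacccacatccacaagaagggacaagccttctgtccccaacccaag
Gjb2: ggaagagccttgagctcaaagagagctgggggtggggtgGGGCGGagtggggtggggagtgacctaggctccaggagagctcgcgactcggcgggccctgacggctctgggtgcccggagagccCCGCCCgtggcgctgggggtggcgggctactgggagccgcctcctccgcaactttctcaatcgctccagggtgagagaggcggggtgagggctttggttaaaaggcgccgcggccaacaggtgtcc
Gja1: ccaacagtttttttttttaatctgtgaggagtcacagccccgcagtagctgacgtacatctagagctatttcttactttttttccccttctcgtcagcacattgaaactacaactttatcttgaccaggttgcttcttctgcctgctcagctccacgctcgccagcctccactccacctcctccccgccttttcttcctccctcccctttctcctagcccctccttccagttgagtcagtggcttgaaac

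The Gjb2 sequence held 2 GC boxes, and the Gjb6 and Gja1 sequences held none. Over the 32851 promoters of the same length in the table, 32.742% held at least 1. The Gjb2 stretch had 69.2% G and C and 18 CG dinucleotides, Gjb6 had 56.8% and 5, and Gja1 had 50% and 6, beside a median of 52.4% G and C over all promoters. Neither the palindromic glucocorticoid receptor motif AGNACANNNTGTNCT (in 0.061% of all promoters) nor its shorter form AGAACA (read on the other strand as TGTTCT, and found in 16.085%), was found in these 3 sequences. Among the other 5 genes, Hepacam held 1 AGAACA, 85 bases before its start, and Panx1, Mlc1, Clcn2 and Tjp1 held none. A palindromic match can contain the shorter form, and the 2 searches were made separately. These matches describe letters in a short window and say nothing of binding here or elsewhere.

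Per length, the 8 genes covered a wide range, from among the most abundant RNAs of these cells to a scarce one. In deposited TPM (a level per length that sums to the same total in every library), the mean over 12 libraries was 2675 for Gja1, 1495 for Mlc1, 745 for Hepacam, 446 for Gjb6, 183 for Tjp1, 68.9 for Clcn2, 43.3 for Gjb2 and 4.01 for Panx1. Gja1 ranked 28th and Mlc1 ranked 50th by mean TPM among all genes of the table, and Panx1 ranked 12688th. This order held in 11 of 12 libraries. The exception was Cre- ESD 3, where Gjb6 (1006 TPM) stood above Hepacam. Only 2 neighbouring pairs in the order had overlapping TPM ranges over the 12 libraries, Hepacam with Gjb6 and Gjb6 with Tjp1, where the lowest Gjb6 library lay just under the highest Tjp1 library.

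**Figure D1:**
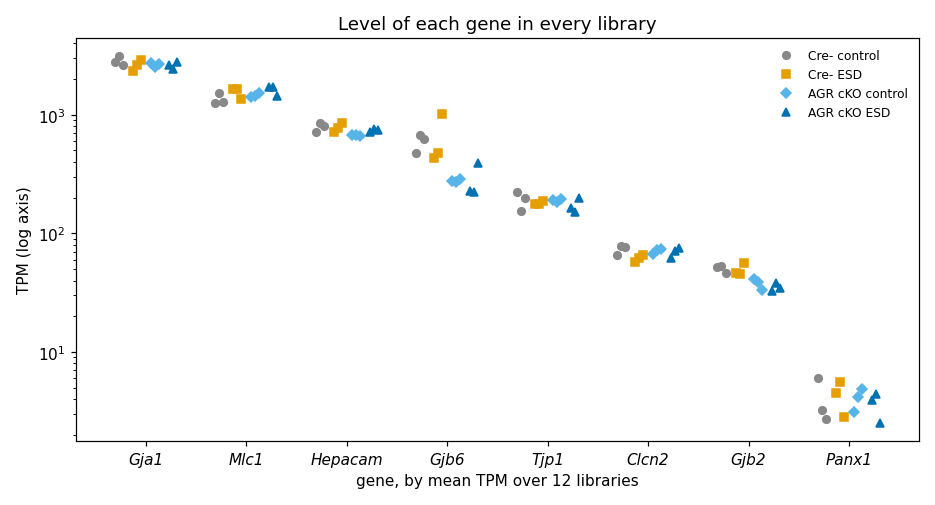
Deposited TPM (log axis) of the 8 genes in each of the 12 libraries, ordered by mean TPM, with a colour and marker for each group. Gja1 stays between 2345 and 3116 TPM in every library, whereas Gjb6 runs from 222 to 1006 TPM and its 6 AGR cKO points lie below its 6 Cre- points.

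The genes differed in how much they varied. Gjb6 had the largest coefficient of variation of the 8 in TPM, 51.7%, and its highest library was 4.54 times its lowest. Gja1 had the smallest, 7.59%, followed by Hepacam at 8.55%, Clcn2 at 9.40%, Mlc1 at 10.6%, Tjp1 at 11.2%, Gjb2 at 18.4% and Panx1 at 28.8%. Panx1 rested on 82 to 206 counts a library, against at least 1228 counts for each of the other 7 genes.

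Gjb6, which encodes the second main connexin of astrocytes, was the gene that differed most between genotypes. In Cre- animals its level was 317, 492 and 452 CPM in controls and 318, 332 and 727 CPM after ESD. In AGR cKO animals it was 187, 195 and 204 CPM in controls and 171, 154 and 283 CPM after ESD. All 6 AGR cKO libraries were below all 6 Cre- libraries. Cre- ESD 3 and AGR cKO ESD 3 were the high libraries of their groups. Over both conditions, the mean was 440 ± 159 CPM over the Cre- libraries and 199 ± 44.9 CPM over the AGR cKO libraries (SD, n = 6 each). The log2 fold change was -1.14 ± 0.22 (SE; 95% interval -1.63 to -0.65), 0.453 times the Cre- level, with an edgeR quasi-likelihood adjusted p of 0.0218.

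Gjb2 encodes Cx26, a connexin known from the leptomeninges and, at low levels, from astrocytes. It was at 41.2, 45.8 and 39.1 CPM in Cre- control, 39.7, 38.1 and 47.5 CPM in Cre- ESD, 33.3, 32.8 and 28.1 CPM in AGR cKO control and 28.5, 30.8 and 29.5 CPM in AGR cKO ESD libraries. Again all 6 AGR cKO libraries were below all 6 Cre- libraries, with means of 30.5 ± 2.18 and 41.9 ± 3.87 CPM (SD, n = 6 each). The log2 fold change over both conditions was -0.46 ± 0.07 (95% interval -0.62 to -0.30), 0.727 times the Cre- level, with an edgeR adjusted p of 0.00948.

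Gja1, the main astrocyte connexin, showed no such gap. Its level was 2796, 3448 and 2842 CPM in Cre- control, 2607, 2829 and 3158.5 CPM in Cre- ESD, 2827, 2754 and 2865 CPM in AGR cKO control and 2924, 2571 and 3057.5 CPM in AGR cKO ESD libraries. The groups overlapped throughout. The log2 fold change over both conditions was -0.06 ± 0.08, and its 95% interval of -0.23 to 0.12 leaves room for a level between 0.850 and 1.09 times that of Cre- libraries.

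**Figure D2:**
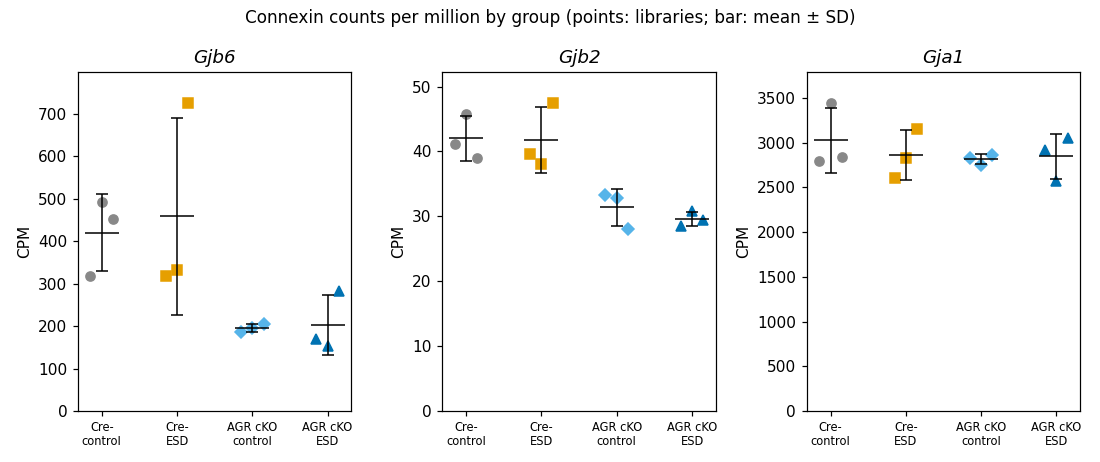
CPM of Gjb6, Gjb2 and Gja1 in every library by group, with the mean and SD of the 3 libraries as a black bar and each axis starting at 0. For Gjb6 and Gjb2 every AGR cKO point lies below every Cre- point, and for Gja1 the groups share the same range.

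Thus 2 of the 8 genes fell in AGR cKO libraries over both conditions and none rose, where a gene is called at an edgeR adjusted p under 0.05 over all genes tested. Of all 19163 genes, 1.94% were called lower in this comparison and 3.49% were called in either direction. The same 2 of 8 were lower without overlap of 6 against 6 libraries, beside 1.4% of all genes. The median log2 fold change of the 8 genes was -0.08, and that of all genes was -0.00233.

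Within a single condition the fitted differences of Gjb6 and Gjb2 were of similar size, with fewer libraries behind each. Both genes were lower without overlap in each condition, as were 8.39% of all genes in control and 9.64% in ESD animals. In control animals no member passed the test, where 0.0157% of all genes did. The log2 fold change was -1.11 ± 0.32 for Gjb6 (edgeR adjusted p = 0.275) and -0.42 ± 0.10 for Gjb2 (edgeR adjusted p = 0.235). In ESD animals Gjb2 passed the test (-0.50 ± 0.10, edgeR adjusted p = 0.0459), beside 0.459% of all genes called lower and 1.04% called either way. The Gjb6 value there was -1.18 ± 0.32, with an edgeR adjusted p of 0.112. Which of the pair was called in ESD animals depended on the fit. With the replicate number as a block, Gjb6 was called (edgeR adjusted p = 0.0474) and Gjb2 was not (0.0630), and DESeq2 called both genes in each condition. The interaction, the difference between the stress differences of the genotypes, was -0.07 for Gjb6 (95% interval -1.04 to 0.89) and -0.08 for Gjb2 (-0.39 to 0.24). None of the 8 genes passed the edgeR test of the interaction, and 0% of all genes did. At an unadjusted p under 0.05 that test gave 860 genes, 4.49% of those tested, and DESeq2 called 9.

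Single libraries mattered for Gjb6. Without Cre- ESD 3, the log2 fold change was -0.68 in ESD animals (edgeR adjusted p = 0.259) and -0.89 over both conditions, where the edgeR adjusted p was 0.0190. The call over both conditions was lost when AGR cKO control 1, 2 or 3 or AGR cKO ESD 1 was left out. The edgeR adjusted p was then 0.0618, 0.0706, 0.0526 and 0.0629, with log2 fold changes of -1.13, -1.14, -1.16 and -1.08. Over the 12 fits that leave out a library, the log2 fold change of Gjb6 was -1.29 to -0.89. Those fits called 151 to 932 of all genes, against 668 with all libraries. Gjb2 was called over both conditions in all 12. Its call in ESD animals was kept in 1 of the 12 fits, that without Cre- control 1 (edgeR adjusted p = 0.0487), and the adjusted p in the other fits ran up to 0.158. Without Cre- ESD 3, the log2 fold change of Gjb2 in ESD animals was -0.39.

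The balance between the connexins shifted with genotype. As a share of Gja1 TPM, Gjb6 TPM was 20.9 ± 3.45% in Cre- controls and 23.8 ± 9.61% in Cre- animals with ESD. It was 10.5 ± 0.41% in AGR cKO controls and 10.6 ± 2.90% in AGR cKO animals with ESD (SD, n = 3 each). The lowest Cre- library stood at 17.2% and the highest AGR cKO library at 13.9%. Gjb2 TPM was 1.80 ± 0.095% and 1.88 ± 0.12% of Gja1 TPM in the Cre- groups and 1.44 ± 0.15% and 1.35 ± 0.17% in the AGR cKO groups, again without overlap. Of the summed TPM of the 3 connexins, Gja1 made up 81.6% in Cre- control libraries, 79.8% in Cre- ESD libraries and 89.3% and 89.4% in the AGR cKO groups without and with ESD. These are shares of RNA per length, given as a description without a test of their own.

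**Figure D3:**
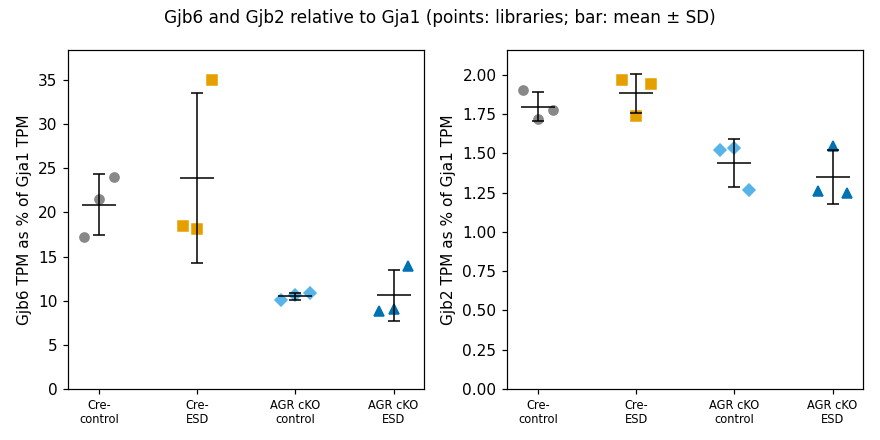
Gjb6 TPM (left) and Gjb2 TPM (right) as a percentage of Gja1 TPM in every library by group, with mean and SD. The 6 AGR cKO libraries lie at or below 13.9% for Gjb6 and all 6 Cre- libraries at or above 17.2%.

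The lower level was seen across the transcript models of Gjb6. The deposited transcript table held 5 of them. NM_001010937 carried 66.5% of the gene's TPM on average, and XM_006518560, which starts 1480 bases inside the outermost start, carried 16.3%. NM_001010937 was at 411 ± 162 TPM in Cre- and 187 ± 52.7 TPM in AGR cKO libraries, and XM_006518560 was at 105 ± 45.1 and 41.8 ± 11.9 TPM (SD, n = 6 each). The other 3 models were lower on average in AGR cKO libraries as well. Only XM_006518560 had 6 against 6 libraries without overlap, and the authors' estimates for models that share most of their exons are less certain than the gene total. Gja1, Gjb2 and Panx1 had 1 model each. The longest run of identical bases shared by transcripts of the connexins was 20 bases between Gjb2 and Gjb6, 16 between Gja1 and Gjb2 and 13 between Gja1 and Gjb6 (GENCODE M21).

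The other genes tested nearby on chromosome 14 did not pass the edgeR test. Within 250 kb of the pair, Zmym2 had a log2 fold change of 0.03 ± 0.06 and Cryl1 one of -0.09 ± 0.08 over both conditions. The long non-coding RNA gene Gm32912, which lies between Gjb2 and Gjb6 and overlaps the start of Gjb2, had 2.59 ± 0.77 CPM in the 6 Cre- and 2.45 ± 0.42 CPM in the 6 AGR cKO libraries, with a log2 fold change of -0.08 ± 0.21. Whether the authors' counting used the strand is not given in the sources used here, so reads in that overlap cannot be told apart. Gja3, the third connexin gene of the cluster, did not pass the filter on low counts.

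Markers of several other cell types were fitted lower in AGR cKO libraries, few of them past the test. Over both conditions the fitted log2 fold change was below 0 for 13 of 13 microglia and macrophage markers (median -1.11), 11 of 11 endothelial markers (median -1.0) and 9 of 9 ependymal markers (median -0.91), of which 0, 0 and 6 were called. Of all genes, 1.94% were called lower. An unadjusted edgeR p under 0.05 was found for 13, 10 and 8 of these markers, beside 20% of all genes. For the leptomeningeal fibroblast, mural and neuronal lists these counts were 0 of 12, 1 of 9 and 2 of 13. Summed ependymal markers in control animals were 122 to 205 CPM with the receptor gene intact and 67.0 to 118 CPM in AGR cKO libraries, and in ESD animals 96.2 to 123 and 68.1 to 85.0 CPM. Of the 12 leptomeningeal fibroblast markers, 11 were below 0 over both conditions (median -0.26), 7 in control animals (median -0.04) and 11 in ESD animals (median -0.42), with none called. Their sum was 730 to 1346 CPM in Cre- and 950 to 1239 CPM in AGR cKO control libraries, and 696 to 1222 and 644 to 759 CPM in the ESD groups. Of the 9 mural cell markers, 8 were below 0 over both conditions (median -0.09), 2 in control animals (median 0.20) and 9 in ESD animals (median -0.44). The 13 neuronal markers were all above 0 in control animals (median 0.40), whereas 11 were below 0 in ESD animals (median -0.56), and over both conditions 6 were below 0 (median 0.03). No mural or neuronal marker was called in these comparisons. The part of all these cells in the results for Gjb6 and Gjb2 was not tested. Of the 17 astrocyte markers, 12 were below 0 over both conditions (median -0.07), and 5 had an unadjusted edgeR p under 0.05, beside 20% of all genes. Of these markers 1 was called higher (Aqp4) and 1 lower (Aldoc), beside 3.49% of all genes called either way. In bulk samples such as these, fewer cells of a type and less RNA per cell cannot be told apart.

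Genes whose profile over the 12 libraries was nearest to that of Gjb6 were Fam107a, Prodh and Slc29a3. Likeness was the root mean square difference of centred log2 CPM, searched over 11214 genes, and it was 0.137, 0.151 and 0.168 for these genes, against 0.659 for the profile of Gjb6 itself about its mean. Nearest to Gjb2 were Ttc12, Ascc1 and Ivns1abp (0.082, 0.095 and 0.107, against 0.252). For Gja1, whose profile varied little (0.111), they were Edrf1, Cdk8 and Stk16 (0.057, 0.057 and 0.058).

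Panx1 was low in every library and varied too much for a small difference to be seen. It was at 4.14, 2.39 and 1.99 CPM in Cre- control, 3.38, 4.07 and 2.09 CPM in Cre- ESD, 2.17, 3.06 and 3.54 CPM in AGR cKO control and 2.99, 3.12 and 1.87 CPM in AGR cKO ESD libraries. The genotype difference over both conditions was -0.11 ± 0.24 on the log2 scale (95% interval -0.63 to 0.41), and the groups overlapped.

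Hepacam, the adhesion partner, was the third member with an unadjusted p under 0.05 for genotype over both conditions, as had 20% of all genes. It was at 723, 939 and 859 CPM in Cre- control, 798, 830 and 930 CPM in Cre- ESD, 703, 726 and 714 CPM in AGR cKO control and 794, 789 and 812.5 CPM in AGR cKO ESD libraries. The 3 AGR cKO control libraries lay close together, and Cre- control 1 fell among them. The log2 fold change over both conditions was -0.16 ± 0.07 (95% interval -0.32 to -0.01), which did not pass the edgeR test (adjusted p = 0.211).

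Mlc1, which encodes the membrane protein mutated in megalencephalic leukoencephalopathy with subcortical cysts, did not pass for genotype either. It was at 978, 1303 and 1065 CPM in Cre- control, 1416, 1367 and 1158 CPM in Cre- ESD, 1139, 1259 and 1283 CPM in AGR cKO control and 1487, 1396 and 1218 CPM in AGR cKO ESD libraries. The AGR cKO libraries covered much the same range as the Cre- libraries. The genotype difference over both conditions was 0.10 ± 0.09 on the log2 scale (95% interval -0.10 to 0.29). Hepacam TPM was 58.8 ± 3.17% of Mlc1 TPM in Cre- control libraries, 51.1 ± 9.83% in Cre- ESD libraries and 46.2 ± 2.35 and 45.7 ± 5.44% in the AGR cKO groups without and with ESD (SD, n = 3 each).

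Clcn2 was at 80.5, 111 and 102 CPM in Cre- control, 77.8, 83.0 and 87.2 CPM in Cre- ESD, 89.4, 95.5 and 95.3 CPM in AGR cKO control and 86.4, 92.7 and 101 CPM in AGR cKO ESD libraries. Its genotype difference over both conditions was 0.06 ± 0.08 on the log2 scale (95% interval -0.11 to 0.22). The deposited table split Clcn2 over 9 transcript models, and the most abundant, NM_009900, carried anything from 2.86 to 70.7% of its TPM in single libraries. The gene total is therefore used here.

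Tjp1, the scaffold gene, was at 505, 384 and 475 CPM in Cre- control, 434, 432 and 456 CPM in Cre- ESD, 448, 446 and 470 CPM in AGR cKO control and 412, 355 and 490 CPM in AGR cKO ESD libraries. All 4 groups overlapped. Its genotype difference over both conditions was -0.04 ± 0.09 on the log2 scale (95% interval -0.22 to 0.15).

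**Figure D4:**
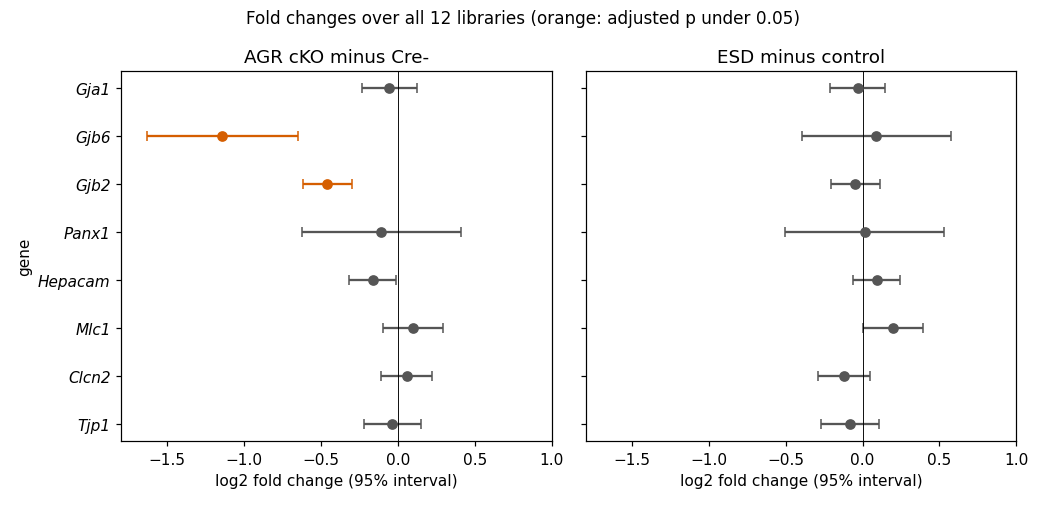
Fitted log2 fold change of each gene with its 95% interval over all 12 libraries, for AGR cKO minus Cre- (left) and ESD minus control (right). Only the genotype intervals of Gjb6 (-1.63 to -0.65) and Gjb2 (-0.62 to -0.30) belong to genes called at an edgeR adjusted p under 0.05, and the intervals of Panx1 and Gjb6 are the widest.

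Daily separation from the dam moved none of the 8 genes past the test, in Cre- animals, in AGR cKO animals or over both genotypes, and 0% of all genes were called in each of these comparisons. At an unadjusted p under 0.05 the edgeR test gave 1378, 1453 and 1987 genes (7.19%, 7.58% and 10.4% of all genes). Of the 8 genes, 1, 0 and 1 had such a p. DESeq2 called 24, 18 and 28 genes, none of them among the 8. Over both genotypes the median of the 8 genes was -0.00836 on the log2 scale, against -0.00852 for all genes. Mlc1 had the largest fitted difference (0.20 ± 0.09, 95% interval 0.00 to 0.39, unadjusted p = 0.0480, edgeR adjusted p = 0.478), and the control and ESD libraries overlapped. Clcn2 in Cre- animals had -0.24 ± 0.11 (unadjusted p = 0.0451, edgeR adjusted p = 0.691). Hepacam was the only member whose 3 ESD libraries did not overlap the 3 control libraries, in AGR cKO animals, with 0.16 ± 0.10 on the log2 scale (edgeR adjusted p = 0.764), beside 7.94% of all genes that were higher without overlap. Of the 17 astrocyte markers, 15 were above 0 for stress over both genotypes (median 0.11) and 15 in AGR cKO animals (median 0.09), with none called. Their part in the Mlc1 and Hepacam values was not tested. For Gja1 the stress difference over both genotypes was -0.03 (95% interval -0.21 to 0.15), and for Gjb2 it was -0.05 (-0.21 to 0.11). For Gjb6 it was 0.09 (-0.39 to 0.57). In Cre- animals the Gjb6 difference was 0.13 with all libraries but -0.37 without Cre- ESD 3 and -0.04 without Cre- control 1, so its direction turned on single libraries.

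Most of the other connexin and pannexin genes were scarce or absent in this RNA. Of 19 such genes, 7 passed the filter on low counts, and neither edgeR nor DESeq2 called any of them in the 7 comparisons (1 had an unadjusted edgeR p under 0.05 for genotype and 1 for stress, each over both levels of the other factor, beside 20% and 10.4% of all genes). The highest were Gjc1 and Gja4, connexin genes known from vascular cells, at means of 79.1 and 57.2 TPM over the 12 libraries. Both means were above that of Gjb2, 43.3 TPM. Summed mural cell markers, which cover pericytes and smooth muscle, ran from 1982 to 6154 CPM over the same libraries. Gja5 (2.83 TPM), Panx2 (1.95 TPM) and the other 3 were low. For genotype over both conditions the smallest p belonged to Panx2, with a log2 fold change of 0.56 ± 0.23 (edgeR adjusted p = 0.200). The median of the 7 was 0.21, against -0.00233 for all genes. For stress over both genotypes the smallest p belonged to Gjc1, with -0.52 ± 0.23 (edgeR adjusted p = 0.472). The mural cell markers lay on the same side: 9 of 9 were below 0 for stress over both genotypes (median -0.56) and 9 of 9 in AGR cKO animals (median -0.82), with none called, and their part in the Gjc1 value was not tested.

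Among 12 junction scaffold and regulator genes, 1 was called for genotype over both conditions and none for stress. Dbn1, which encodes drebrin, an actin-binding protein that also binds Cx43, rose from 60.9 to 76.8 CPM over the 6 Cre- libraries to 84.4 to 109 CPM over the 6 AGR cKO libraries. Its log2 fold change was 0.38 ± 0.07 (edgeR adjusted p = 0.0197), and the call was lost without AGR cKO control 1 (0.0514) or AGR cKO control 2 (0.0606). Cdh2 (N-cadherin) had -0.15 ± 0.05 (edgeR adjusted p = 0.130), which DESeq2 called lower. The median of the 12 was -0.03. Beside these counts, 1.55% of all genes were called higher.

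Among 15 genes for partners of MLC1 and GlialCAM, endfoot proteins and volume-regulated channels, 3 rose and 2 fell in AGR cKO libraries over both conditions, beside 1.55% of all genes called higher and 1.94% called lower, with a median of -0.06. Aqp4, the water channel of endfeet, went from 1349 to 1969 CPM in Cre- to 2153 to 2651 CPM in AGR cKO libraries without overlap (log2 fold change 0.50 ± 0.11, edgeR adjusted p = 0.0315). Of all genes, 1.37% were higher without overlap. Atp1b1, a sodium pump subunit, went from 265 to 318 CPM to 347 to 385 CPM (0.32 ± 0.05, edgeR adjusted p = 0.010). Atp1b2, the other pump subunit of this list, was the more abundant, at a mean of 3289 TPM against 363 TPM for Atp1b1. It was not called, and its mean was lower in AGR cKO libraries (3223 CPM, range 2854 to 3510) than in Cre- libraries (3655 CPM, range 3284 to 4122). Dmd, the dystrophin gene, was the fifth call of this list and rose by 0.28 ± 0.07 (edgeR adjusted p = 0.0481). Its ranges overlapped, at 205 to 244 CPM in Cre- and 229 to 326 CPM in AGR cKO libraries. For this comparison Dmd was named after its value was seen, since the naming rule stops at 4 called genes. The rule named it by smallest p for genotype in control animals, stress in AGR cKO animals and stress over both genotypes.

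The genes that fell were among the subunits of the volume-regulated anion channel, and not all of its subunits on this list fell. Lrrc8a, its essential subunit, had 131 to 253 CPM over the Cre- libraries and 89.3 to 108 CPM over the AGR cKO libraries (log2 fold change -0.71 ± 0.15, edgeR adjusted p = 0.0283). Lrrc8c was at 55.6 to 157 CPM and 22.4 to 43.3 CPM (-1.23 ± 0.25, edgeR adjusted p = 0.0270). Lrrc8b and Lrrc8d, the other subunits of this list, were not called, and their ranges overlapped between genotypes. The mean of Lrrc8b was 59.1 CPM over the Cre- libraries and 49.7 CPM over the AGR cKO libraries. For Lrrc8d these means were 26.5 and 25.2 CPM. Neither Lrrc8a nor Lrrc8c overlapped between genotypes, beside 1.4% of all genes that were lower without overlap. Both had their highest value in Cre- ESD 3, as did Gjb6. Without that library the values were -0.52 for Lrrc8a (edgeR adjusted p = 0.00737) and -0.89 for Lrrc8c (0.0138). Aqp4, Lrrc8a and Lrrc8c each lost their call in 6 of the 12 fits that leave out a library, with edgeR adjusted p up to 0.0876, 0.0773 and 0.0773, and Atp1b1 kept its call over both conditions in all 12. In ESD animals edgeR called Atp1b1 higher (0.42 ± 0.07, adjusted p = 0.0320), as it did 0.584% of all genes, and DESeq2 called Atp1b1, Aqp4, Lrrc8a and Lrrc8c. The edgeR call of Atp1b1 in ESD animals was lost with only the groups compared (adjusted p = 0.155) and in 7 of the 12 fits that leave out a library (adjusted p up to 0.111). In control animals neither edgeR nor DESeq2 called any of the 15, and 5 of them had an unadjusted edgeR p under 0.05, beside 10.2% of all genes. Kcnj10, the potassium channel of endfeet, had 0.16 ± 0.07 over both conditions (edgeR adjusted p = 0.241).

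**Figure D5:**
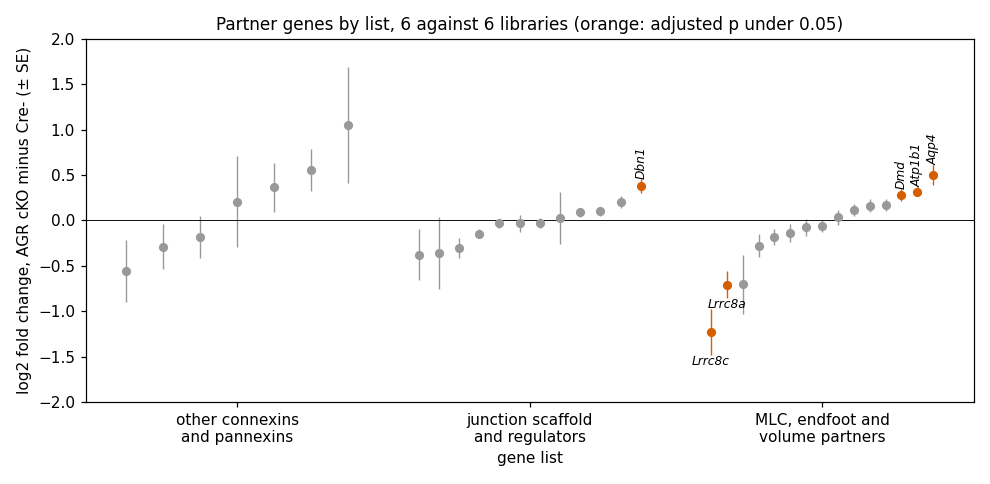
Log2 fold change (AGR cKO minus Cre-, 6 against 6 libraries) with its SE for each tested gene of the 3 partner lists, sorted within a list, with genes called at an edgeR adjusted p under 0.05 in orange. The list of MLC, endfoot and volume partners holds called genes on both sides of 0, from Lrrc8c at -1.23 to Aqp4 at 0.50.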

How the data were processed

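The authors deposited whole-number read counts per gene and per transcript. FPKM and TPM values stand beside them, per the file headers; the authors' TPM served for levels between genes and their FPKM only to repeat the order. Per the submitters' processing notes build mm10 was used, with StringTie 1.3.4b, HISAT2 2.1.0, HISAT, Trimmomatic, Bowtie2 and DESeq2; their roles, and whether counting used the strand, are not given in the sources used here. Per the labels' protocols, 1 µg of total RNA with an integrity number over 7.0 entered a stranded mRNA kit. Titles gave the groups. Column names read cre_M and cre_P, taken as Cre- and AGR cKO, which the labels do not spell out.

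The deposited counts were tested with edgeR 4.0.16 in R 4.3.3 (filterByExpr, TMM, quasi-likelihood F test, 1 mean per group over 12 libraries, 8 residual degrees of freedom), with Benjamini-Hochberg adjustment over 19163 genes, two-sided, called under 0.05. There were 7 contrasts: ESD against control in either genotype, AGR cKO against Cre- in either condition, the interaction, and genotype and stress averaged over the other factor. Contrasts that share libraries are not independent. The SE is the size of the log2 fold change over the square root of F. An exact permutation test of 3 against 3 libraries cannot go below 0.1. The script was tested on simulated data. Alternatives used DESeq2 1.42.0, limma 3.58.1 on log2 of the deposited TPM plus 1 or 0.1, other scalings, filters and thresholds, a replicate block and left-out libraries.

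Named genes are the 8 members, Nr3c1, and from each of 3 partner lists up to 4 called genes per contrast, or up to 2 with the smallest p; other partners and markers named were chosen after their values were seen. The members and lists were chosen with earlier results of these data known. Genes were matched by symbol to RefSeq tables of GRCm38.p6, where all 8 had a promoter.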

Additional observations from a re-analysis of the deposited data

How the results depend on the processing

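Of 1152 log2 fold changes of the 8 genes under an alternative setting, 1046 kept their direction and side of the threshold, 82 changed direction, 20 lost a call and 4 gained one. Gjb2 and Gjb6 stayed called lower in AGR cKO libraries over both conditions under DESeq2, both other scalings, both other filters, the replicate block and both TPM tests. DESeq2 also called both genes in each condition. Gjb2 in ESD animals was not called without the filter (edgeR adjusted p = 0.0611), with only the groups compared (0.158) or by limma on TPM (0.0711 and 0.0681 with 1 and 0.1 added). The number of genes called moved by over 1.5 times under DESeq2 for stress in Cre- (24), stress in AGR cKO (18), genotype in control (276), genotype in ESD (801), the interaction (9), genotype over both conditions (1727) and stress over both genotypes (28). With only the groups compared it was 31 for genotype in control and 0 for genotype in ESD, and without a filter 100 for genotype in ESD. At an adjusted p under 0.1 it was 8, 453 and 1483 for genotype in control, in ESD and over both conditions, and under 0.01 it was 0, 1 and 94. Leaving out each library in turn gave 0 to 1 called genes for stress in Cre-, 0 to 0 for stress in AGR cKO, 0 to 63 for genotype in control, 2 to 280 for genotype in ESD, 0 to 0 for the interaction, 151 to 932 for genotype over both conditions and 0 to 1 for stress over both genotypes. The order of the 8 genes held in 11 libraries by FPKM as by TPM. No paired analysis was used as the main result. Of 18 pairs of libraries with the same number, 7 had a correlation of their deviations over 0.1 (range -0.10 to 0.23), and 8 of 12 libraries correlated best with their own number. These values do not show that the replicate number was without effect. With the replicate block, 0, 0, 2, 244, 0, 799 and 0 genes were called in the 7 contrasts in the order above; Gjb6 in ESD animals was then called (edgeR adjusted p = 0.0474) and Gjb2 there was not (0.0630). The changes of direction all concern values that were not called, and their cause was not tested. For stress in Cre- animals, Gjb2 was 0.0042 with upper-quartile scaling, 0.0071 without a filter and 0.0010 with only the groups compared, and Hepacam was -0.016 in both TPM tests. For stress in AGR cKO animals, Gja1 was -0.014 in both TPM tests, Gjb6 was -0.0074 with the block and -0.037 in both TPM tests, and Clcn2 was -0.0016 without a filter, -0.0091 with at least 1 CPM in 3 libraries, -0.0067 with only the groups compared, -0.0023 with the block and -0.027 in both TPM tests. For genotype in ESD animals, Gja1 was 0.0072 in both TPM tests. For stress over both genotypes, Gjb6 was -0.012 in both TPM tests, and Panx1 was -0.022 with the block and -0.013 and -0.016 in the TPM tests. With each library left out in turn, the log2 fold changes that crossed 0 ran as follows. For stress in Cre- animals, Gja1 ran from -0.16 to 0.028, Gjb6 ran from -0.37 to 0.34, Gjb2 ran from -0.11 to 0.063, Panx1 ran from -0.055 to 0.54, Hepacam ran from -0.076 to 0.11 and Tjp1 ran from -0.15 to 0.037. For stress in AGR cKO animals, Gja1 ran from -0.041 to 0.087, Gjb6 ran from -0.27 to 0.22, Panx1 ran from -0.31 to 0.059 and Clcn2 ran from -0.067 to 0.057. For genotype in control animals, Gja1 ran from -0.16 to 0.0024, Panx1 ran from -0.16 to 0.42, Clcn2 ran from -0.19 to 0.041 and Tjp1 ran from -0.10 to 0.083. For genotype in ESD animals, Gja1 ran from -0.069 to 0.069, Mlc1 ran from -0.026 to 0.14 and Tjp1 ran from -0.20 to 0.034. For the interaction, Gja1 ran from -0.0085 to 0.17, Gjb6 ran from -0.41 to 0.43, Gjb2 ran from -0.15 to 0.028, Mlc1 ran from -0.21 to 0.0058 and Tjp1 ran from -0.21 to 0.033. For genotype over both conditions, Panx1 ran from -0.22 to 0.079, Clcn2 ran from -0.0053 to 0.11 and Tjp1 ran from -0.091 to 0.017. For stress over both genotypes, Gja1 ran from -0.069 to 0.024, Gjb6 ran from -0.16 to 0.20 and Panx1 ran from -0.094 to 0.20. Panx1 had the fewest counts of the 8 genes, 82 to 206 a library, and the part of depth in its spread was not tested.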
